A study of Saccharomyces cerevisiae with 34 samples.

Results

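The thioredoxin and peroxiredoxin genes described here are 10 genes of budding yeast (Saccharomyces cerevisiae) chosen by name, with no value in the rule, though with earlier results of these data known. They are the thioredoxins TRX1 (YLR043C) and TRX2 (YGR209C), the thioredoxin reductase TRR1 (YDR353W), the peroxiredoxins TSA1 (YML028W), TSA2 (YDR453C), AHP1 (YLR109W), PRX1 (YBL064C) and DOT5 (YIL010W), the sulfiredoxin SRX1 (YKL086W) and the thiol peroxidase GPX2 (YBR244W). All 10 were found among the 5390 S. cerevisiae features of a count table that also held 5143 genes of fission yeast (Schizosaccharomyces pombe). The study blocked Kin28, the kinase of the general transcription factor TFIIH that phosphorylates the tail of RNA polymerase II, and sequenced newly made (nascent) and total RNA.

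All cells were of the BY4741 background, grown in medium lacking histidine with dextrose at 30 °C. The strains were kin28is, which carries the Kin28 form sensitive to the irreversible inhibitor CMK, kin28as, which carries the analog-sensitive form, and WT. Cells received CMK, the reversible inhibitor 1-NAPP-1 or the solvent DMSO for 1 hour. Inhibitors were at 2 µM in the replicates numbered 1 and at 5 µM in all later ones, so dose and replicate set cannot be told apart. Except in 1 WT DMSO culture per RNA fraction, 5 mM 4-thiouracil (4tU), a base that is built into new RNA and lets it be pulled out, was present for the last 6 minutes, in controls and treated cells alike. Labelled S. pombe cells were added before lysis at 1 part to 6 as a spike-in. Of 34 libraries, 19 held nascent and 15 total RNA. The kin28is strain had 4 CMK, 3 1-NAPP-1 and 3 DMSO nascent libraries and 2 total RNA libraries of each. WT had 2 libraries of each treatment per fraction, and kin28as had 1 of 1-NAPP-1 and 1 of DMSO per fraction. Library totals ran between 517887 and 15568445 reads (nascent) and between 2312861 and 9646457 (total RNA), and every pair of libraries of a group differed by more than sampling noise. The labels do not say that replicates were separate cultures, so a p-value here reflects only how far these libraries spread, which may be technical. The edgeR fits took that spread almost wholly from all genes together, and the standard errors given with them carry this shared spread. A gene whose own libraries lie far apart, such as TSA1 in nascent RNA, can therefore still have a small p-value.

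Thioredoxins are small proteins whose paired cysteines reduce disulfides in other proteins, and the reductase recharges them with electrons from NADPH. Peroxiredoxins break down hydrogen peroxide with a reactive cysteine that thioredoxin then restores, and sulfiredoxin repairs peroxiredoxins that have been oxidised too far. In budding yeast much of this system is switched on under peroxide stress by the transcription factors Yap1 and Skn7, while Msn2 and Msn4 act on general stress genes.

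In the RefSeq annotation of the sacCer3 assembly each of the 10 genes is a single coding block with 0 introns and 0 overlapping genes. TRX1 lies at chrXII:231702-232013 and TRX2 at chrVII:912913-913227, both on the minus strand. TRR1 lies at chrIV:1183299-1184258 and TSA1 at chrXIII:220138-220728, both on the plus strand, and TSA2 at chrIV:1365072-1365662 on the minus strand. AHP1 lies at chrXII:368781-369311 (plus), PRX1 at chrII:100371-101156 (minus), DOT5 at chrIX:334882-335529 (plus), SRX1 at chrXI:278281-278664 (plus) and GPX2 at chrII:707528-708016 (plus). The coding sequences of TRX1 and TRX2 match at 73.0% of aligned positions and those of TSA1 and TSA2 at 78.5%. Neither pair shares a window of the read length, 100 bases, within 2 mismatches, so a full-length read of one gene does not match the other within that limit.

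The upstream sequences of 6 members are shown because 5 of them (TRX2, TRR1, AHP1, SRX1 and GPX2) are the members that were lower in total RNA of CMK-treated kin28is cells, and TRX1 is the near copy of TRX2 that did not pass that test. Each line gives the bases that lie between 300 and 101 before the start codon, 5′ to 3′ on the gene's strand, from the RefSeq sequence of sacCer3. Capitals mark the letters TTACTAA or TTAGTCA, known binding letters of Yap1, and CCCCT, the core bound by Msn2 and Msn4, on either strand. The stretches are chrXII:232114-232313 (TRX1, minus), chrVII:913328-913527 (TRX2, minus), chrIV:1182999-1183198 (TRR1, plus), chrXII:368481-368680 (AHP1, plus), chrXI:277981-278180 (SRX1, plus) and chrII:707228-707427 (GPX2, plus).
TRX1: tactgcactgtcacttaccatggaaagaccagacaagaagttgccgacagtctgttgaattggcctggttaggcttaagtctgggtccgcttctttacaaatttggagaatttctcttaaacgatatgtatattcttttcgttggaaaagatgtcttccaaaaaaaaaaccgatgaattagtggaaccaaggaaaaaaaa
TRX2: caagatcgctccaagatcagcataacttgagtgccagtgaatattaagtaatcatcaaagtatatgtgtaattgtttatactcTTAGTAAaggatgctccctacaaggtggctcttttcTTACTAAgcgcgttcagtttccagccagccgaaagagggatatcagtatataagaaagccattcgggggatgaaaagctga
TRR1: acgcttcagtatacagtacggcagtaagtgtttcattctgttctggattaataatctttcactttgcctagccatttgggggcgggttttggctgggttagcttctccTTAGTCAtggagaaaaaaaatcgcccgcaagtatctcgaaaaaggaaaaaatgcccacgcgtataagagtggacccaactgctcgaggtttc
AHP1: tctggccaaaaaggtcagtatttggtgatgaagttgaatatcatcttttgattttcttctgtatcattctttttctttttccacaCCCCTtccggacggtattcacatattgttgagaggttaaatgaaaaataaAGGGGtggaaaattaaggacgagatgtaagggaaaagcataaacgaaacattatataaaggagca
SRX1: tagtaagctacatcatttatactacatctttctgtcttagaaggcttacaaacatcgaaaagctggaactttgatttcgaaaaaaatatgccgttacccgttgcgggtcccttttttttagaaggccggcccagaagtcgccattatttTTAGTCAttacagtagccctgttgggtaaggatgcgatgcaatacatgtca
GPX2: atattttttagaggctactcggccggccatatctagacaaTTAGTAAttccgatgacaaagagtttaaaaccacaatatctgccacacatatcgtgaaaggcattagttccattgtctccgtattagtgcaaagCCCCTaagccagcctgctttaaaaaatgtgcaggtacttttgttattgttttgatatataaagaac

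The letters TTACTAA were searched on both strands in the 300 bases before the start codon. TRX2 held them at 217 bases before the start codon on the opposite strand and at 181 on its own strand, and GPX2 held them at 260 on the opposite strand. TTAGTCA stood at 192 in TRR1, at 151 in SRX1 and at 298 in TSA2, the closely related second copy of TSA1. Across 6001 windows of the same length, 7.82% held TTACTAA, 3.68% held TTAGTCA and 11.2% held either, against 5 of the 10 members. The shorter CCCCT, which overlaps neither of these in its letters, was found upstream of TSA1, TSA2, AHP1, PRX1 and GPX2, that is 5 of 10 members, and in 22.2% of all windows. No match to any of the 3 was found in the windows of TRX1 and DOT5.

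**Figure D1:**
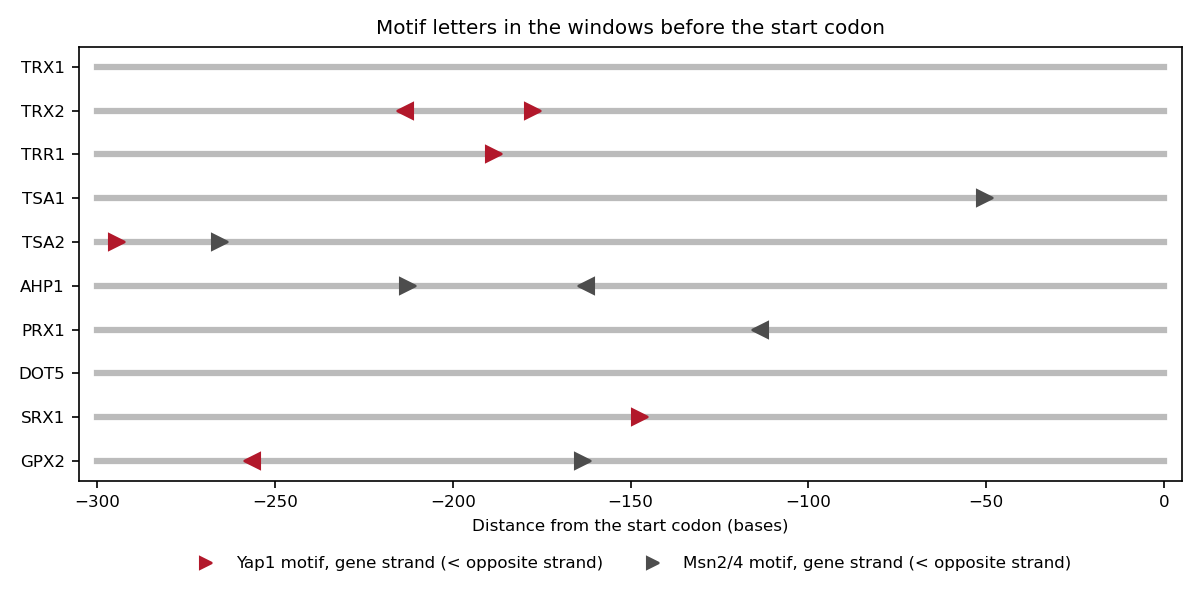
Positions of the Yap1 letters and of the Msn2 and Msn4 letters upstream of each of the 10 genes. The horizontal axis is the distance to the start codon in bases and each row is a gene; the mark points right for the gene's own strand and left for the opposite strand. TRX2 carries 2 Yap1 matches, GPX2, TRR1, SRX1 and TSA2 carry 1 each, and the rows of TRX1 and DOT5 are empty.

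Among themselves the members covered a wide range of levels in total RNA of WT cells given DMSO. TRX2 was the highest at 2392 ± 292 reads per kilobase and 1000000 S. cerevisiae reads (RPKM; SD, n = 2), above 99.1% of genes, followed by TRR1 at 1613 ± 95.5 RPKM. GPX2 (1264 ± 163 RPKM), TRX1 (1223 ± 381 RPKM) and AHP1 (1000 ± 484 RPKM), the alkyl hydroperoxide reductase of the cytosol, came next, and SRX1 stood at 495 ± 248 RPKM. From GPX2 down to SRX1, neighbours in this order did not differ beyond their spread. PRX1, the mitochondrial peroxiredoxin, stood at 144 ± 2.37 RPKM, DOT5, the nuclear thiol peroxidase, at 70.8 ± 2.42 RPKM and TSA1, a cytosolic peroxiredoxin, at 55.1 ± 27.6 RPKM, the last 2 overlapping within their spread. TSA2 was the lowest at 12.1 ± 3.35 RPKM, above 6.5% of genes. Together the members took between 0.174% and 0.538% of S. cerevisiae reads in total RNA with 4tU and between 0.267% and 0.582% in nascent RNA.

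In total RNA of kin28is cells, 5 of the 10 genes were lower with CMK than with DMSO: TRX2, TRR1, AHP1, SRX1 and GPX2, with log2 changes between -1.62 and -2.24. These are one thioredoxin, the enzyme that recharges it, one cytosolic peroxiredoxin, the sulfiredoxin and one thiol peroxidase. No member was called higher, and TRX1, TSA1, TSA2, PRX1 and DOT5 did not pass the test. Fewer cells and less RNA per cell cannot be told apart in these bulk samples. The test was edgeR's quasi-likelihood fit over 12 kin28is and WT libraries, scaled to the S. pombe reads, with the dose set as a term and Benjamini-Hochberg adjusted p under 0.05 over all genes. In that comparison 93 of 5233 genes (1.78%) were lower and 13 (0.248%) higher with CMK, and the median log2 change was -1.33 over the 10 members against 0.18 over all genes tested. These counts rest on single libraries: without DMSO replicate 1 they were 93 lower and 1615 higher, without DMSO replicate 2 there were 319 lower, without CMK replicate 1 there were 42 and without CMK replicate 2 there were 16.

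GPX2 showed the largest change of the 10. It had 173 and 115 counts per 1000000 S. cerevisiae reads (CPM; replicates 1 and 2) with CMK, against 731 and 524 CPM with DMSO, a log2 change of -2.24 ± 0.35 (SE; adjusted p = 2.2e-07). In CPM both CMK libraries lay far below both DMSO libraries, at each dose. On the scale of the test, per 1000000 S. pombe reads, the groups overlapped. The means there were 391 ± 332 with CMK and 1904 ± 1938 with DMSO (SD, n = 2). TRX2 had 258 and 255 CPM with CMK, against 847 and 725 CPM with DMSO (log2 change -1.73 ± 0.34, adjusted p = 0.000108). Its near copy TRX1 had 309 and 273 CPM with CMK, against 335 and 566 CPM with DMSO, and did not pass the test (log2 change -0.62 ± 0.35, adjusted p = 0.356). Neither gene's groups overlapped in CPM, but the highest CMK and the lowest DMSO library of TRX1 lay close together. Per S. pombe reads the groups of both genes overlapped.

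TRR1 had 948 and 577 CPM with CMK, against 2374 and 1929 CPM with DMSO (log2 change -1.62 ± 0.33, adjusted p = 0.000254). AHP1 had 186 and 243 CPM with CMK, against 579 and 863 CPM with DMSO (log2 change -1.84 ± 0.35, adjusted p = 5.78e-05). SRX1, which acts on peroxiredoxins oxidised by excess peroxide, had 136.0 and 103 CPM with CMK, against 314 and 431 CPM with DMSO (log2 change -1.67 ± 0.39, adjusted p = 0.00261). For each of these 3 genes both CMK libraries were below both DMSO libraries in CPM. Per S. pombe reads this held for AHP1, while the groups of TRR1 and SRX1 overlapped. PRX1 and DOT5, the peroxiredoxins of the mitochondrion and the nucleus, had lower fitted values that did not pass the test. PRX1 had 55.5 and 66.1 CPM with CMK, against 125 and 102 CPM with DMSO (log2 change -1.04, adjusted p = 0.239). DOT5 had 21.2 and 37.3 CPM with CMK, against 36.2 and 65.5 CPM with DMSO (log2 change -0.86, adjusted p = 0.515).

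TSA1 had 24.7 and 45.0 CPM with CMK, against 30.5 and 127 CPM with DMSO (log2 change -0.95 ± 0.69, adjusted p = 0.494). Its DMSO libraries were further apart than the groups, and they overlapped. TSA2 had 8.77 and 22.7 CPM with CMK, against 8.38 and 8.42 CPM with DMSO (log2 change 0.54 ± 1.00, adjusted p = 0.807). The second CMK library alone stood high for this gene.

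The called genes were lower at both doses when each CMK library was set against the DMSO library of its own set, per S. cerevisiae reads. The log2 differences at 2 µM and 5 µM were -2.07 and -2.18 for GPX2, -1.71 and -1.51 for TRX2, and -1.32 and -1.74 for TRR1. AHP1 differed by -1.64 and -1.82 and SRX1 by -1.21 and -2.06, while the median gene differed by 0.10 and 0.55. TRX1 differed by -0.11 at 2 µM and by -1.05 at 5 µM. Which dose gave the smaller change depended on the gene, and the scaling matters: per S. pombe reads, TRX2 differed by -2.03 and -1.10 and the median gene by -0.21 and 0.95.

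When libraries were scaled to S. cerevisiae reads, which sets the typical gene near no change, 8 of 10 members were called lower. The additional 3 were TSA1 (log2 change -1.22, adjusted p = 0.0305), PRX1 (-1.17, adjusted p = 0.00586) and DOT5 (-1.11, adjusted p = 0.0167). The background was then 1029 genes (19.7%) lower and 998 (19.1%) higher. Without the dose-set term 0 members passed in the scaling to S. pombe reads, and 7 passed in the scaling to S. cerevisiae reads, an alternative added after the data were seen. Without CMK replicate 2 the call held for TRX2 and GPX2 alone, without DMSO replicate 2 PRX1 was called as well, and without TMM factors SRX1 was not called.

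The comparison of CMK with 1-NAPP-1 in kin28is cells gave the same 5 genes. Lower with CMK were 200 of 5233 genes (3.82%), with 0 called higher, and the medians were -1.39 for the members and -0.09 for all genes. GPX2 had 173 and 115 CPM with CMK, against 655 and 512 CPM with 1-NAPP-1 (log2 change -2.36 ± 0.35, adjusted p = 2.17e-08). TRR1 had 948 and 577 CPM with CMK, against 2526 and 2176 CPM with 1-NAPP-1 (-1.97 ± 0.34, adjusted p = 1.84e-06). TRX2 had 258 and 255 CPM with CMK, against 677 and 592 CPM with 1-NAPP-1 (-1.63 ± 0.34, adjusted p = 0.000225). The libraries of the inhibitor pair did not overlap for these genes. SRX1 had 136.0 and 103 CPM with CMK, against 413 and 354 CPM with 1-NAPP-1 (-1.99 ± 0.39, adjusted p = 7.91e-05). AHP1 had 186 and 243 CPM with CMK, against 476 and 610.0 CPM with 1-NAPP-1 (-1.67 ± 0.35, adjusted p = 0.00024). This comparison shares its CMK libraries with the one against DMSO. Scaled to S. cerevisiae reads, PRX1 was called as well (6 members), where 12% of genes were lower and 3.27% higher. Without 1-NAPP-1 replicate 1 the call held for TRR1 and GPX2 alone, without CMK replicate 2 for TRX2, TRR1 and GPX2, and without the dose-set term for 0 members.

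No member passed the test for 1-NAPP-1 against DMSO in kin28is cells, where edgeR and DESeq2 called 0 genes (0% lower or higher; 4 of 5233 genes had an unadjusted p under 0.05 by edgeR). The members' log2 changes ran from -0.57 (TSA1) to 0.35 (TRR1), beside an all-gene median of 0.31. Without kin28is DMSO replicate 1, 454 genes were higher and 1 lower, with 0 members among them. In WT cells CMK against DMSO likewise gave 0 members and 0 genes (63 at an unadjusted p under 0.05), with changes from -0.03 (AHP1) to 0.88 (TSA2). GPX2 had 714 and 497 CPM in WT cells with CMK, against 674 and 561 CPM with DMSO, and TRX2 had 951 and 578 CPM with CMK, against 689 and 819 CPM with DMSO. These WT groups overlapped. WT cells given 1-NAPP-1 also showed 0 members and 0 genes (18 at an unadjusted p under 0.05). Under DMSO, kin28is against WT gave 0 members and 0 genes (24 at an unadjusted p under 0.05), and without kin28is DMSO replicate 1 there were 108 genes lower and again 0 members. The largest member difference there was SRX1, with 314 and 431 CPM in kin28is cells, against 122 and 257 CPM in WT cells (log2 difference 0.80 ± 0.39, adjusted p = 1).

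The CMK response itself was larger in kin28is than in WT cells for 4 genes by the interaction term of the same fit, in which 23 of 5233 genes (0.44%) were called lower. The difference in log2 response (kin28is minus WT) was -2.33 ± 0.48 for GPX2 (adjusted p = 0.00147) and -1.82 ± 0.47 for TRX2 (adjusted p = 0.0377). It was -1.81 ± 0.49 for AHP1 and -1.73 ± 0.47 for TRR1 (adjusted p = 0.0448 each). SRX1 had a difference of -1.80 ± 0.54 and did not pass (adjusted p = 0.137). The medians were -1.52 over the members and -0.15 over all genes. These calls ended with the scaling to S. cerevisiae reads (0 members), without the dose-set term (0 members) and without WT DMSO replicate 1, WT DMSO replicate 2, WT CMK replicate 2 or kin28is CMK replicate 2 (0 members each). Without kin28is DMSO replicate 1 the call held for GPX2 alone, and without kin28is CMK replicate 1 for TRR1 and GPX2. Without WT CMK replicate 1 or kin28is DMSO replicate 2, SRX1 was called as well.

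In total RNA the level of the least-read genes was higher with CMK than with DMSO in each dose set of kin28is and WT cells. With 1-NAPP-1 it was lower at 2 µM and higher at 5 µM in these strains. The 200 least-read genes averaged 16.8 and 33.1 RPKM in kin28is total RNA with CMK and 7.83 and 11.5 RPKM with 1-NAPP-1, against 8.91 and 4.53 RPKM with DMSO. In WT cells, where no member was called, they averaged 11.4 and 19.97 RPKM with CMK and 7.76 and 21.7 RPKM with 1-NAPP-1, against 9.47 and 6.65 RPKM with DMSO. In kin28as cells they averaged 13.4 RPKM with 1-NAPP-1, against 6.396 RPKM with DMSO. Their part in the results was not tested.

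**Figure D2:**
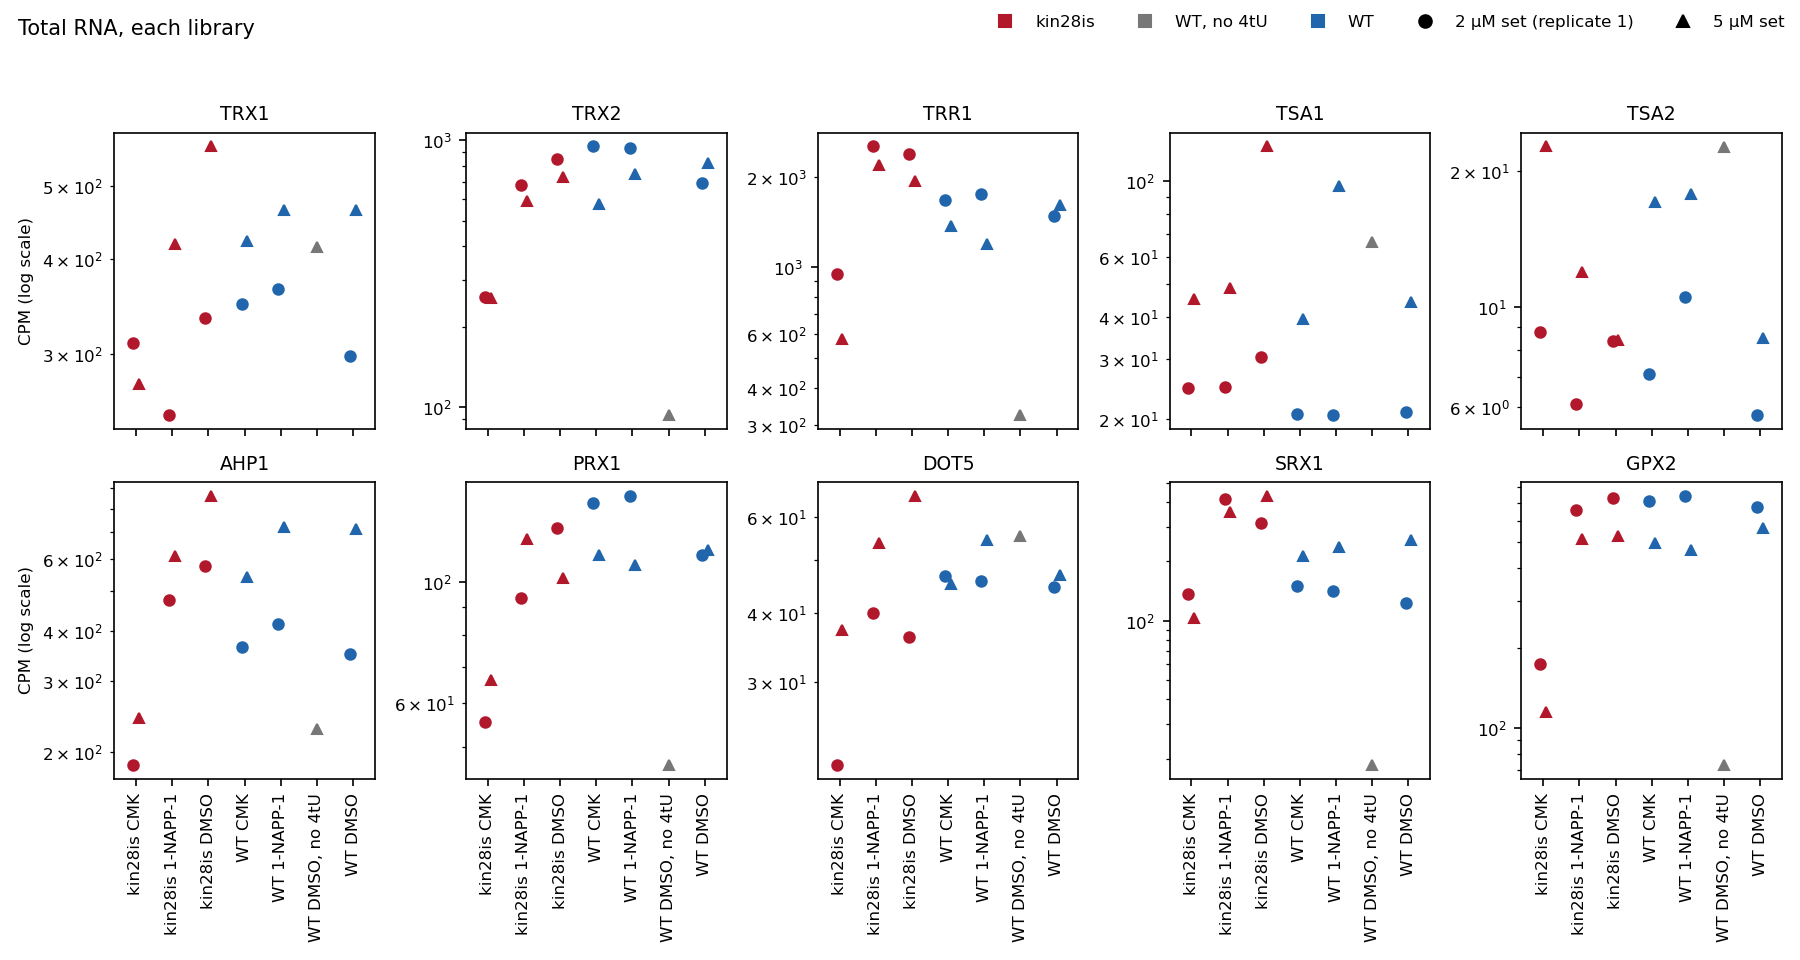
Level of each of the 10 genes in every total RNA library of kin28is and WT cells, as CPM on a log axis, 1 point per library and no error bars. Red points are kin28is, blue points WT and the grey point WT without 4tU; circles are the 2 µM and triangles the 5 µM set. For TRX2, TRR1, AHP1, SRX1 and GPX2 the kin28is CMK points lie below all other kin28is points, for example 258 and 255 CPM against 592 to 847 CPM for TRX2.

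In nascent RNA, 9 of the 10 genes were lower in CMK-treated kin28is cells than with DMSO, counted against the S. pombe spike-in, at a background of 69.4% of genes (3625 of 5222) lower and 0.249% (13 genes) higher. The members' median log2 change was -2.22 and that of all genes -1.66. The 9 were the thioredoxins, TRR1, TSA1, AHP1, PRX1, DOT5, SRX1 and GPX2, and TSA2 did not pass. The fit used the 10 libraries of the 5 µM set. S. cerevisiae reads were 4.71 to 45.8 times the S. pombe reads in the 2 µM set, against 0.277 to 4.15 times in the 5 µM set with 4tU, so the levels of the sets are not comparable on this scale.

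GPX2 had 170, 154 and 123 reads per 1000000 S. pombe reads with CMK (replicates 2, 3 and 4), against 809 and 1466 with DMSO (replicates 2 and 3), a log2 change of -2.92 ± 0.53 (adjusted p = 6.87e-06). TRR1 had 508, 768 and 533 with CMK, against 2611 and 3933 with DMSO (-2.43 ± 0.48, adjusted p = 3.16e-05). TRX2 had 356, 208 and 113 with CMK, against 974 and 1158 with DMSO (-2.22 ± 0.51, adjusted p = 0.000264). In these 3 genes each CMK library lay below each DMSO library. AHP1 had 110, 101 and 49.3 with CMK, against 252 and 510 with DMSO (-2.13 ± 0.54, adjusted p = 0.000753). SRX1 had 73.0, 77.4 and 60.9 with CMK, against 159 and 502 with DMSO (-2.21 ± 0.58, adjusted p = 0.000988). PRX1 had 36.5, 38.7 and 14.8 with CMK, against 116 and 169 with DMSO (-2.27 ± 0.62, adjusted p = 0.00157). None of these groups overlapped either.

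TRX1 had 74.6, 72.1 and 20.8 reads per 1000000 S. pombe reads with CMK, against 158 and 198 with DMSO (log2 change -1.68 ± 0.59, adjusted p = 0.00955), a change close to the median of all genes. DOT5 had 1.59, 8.01 and 2.00 with CMK, against 33.3 and 38.3 with DMSO (-3.28 ± 0.92, adjusted p = 0.00185). Only 1, 6 and 5 reads lie behind the DOT5 values with CMK. TSA1 had 23.8, 9.35 and 3.21 with CMK (15, 7 and 8 reads), against 33.0 and 34.9 with DMSO (-1.63 ± 0.67, adjusted p = 0.0262). TSA2 had 19.05, 2.67 and 1.20 with CMK (12, 2 and 3 reads), against 10.6 and 8.21 with DMSO (-0.46 ± 1.06, adjusted p = 0.69), and its groups overlapped.

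Relative to other S. cerevisiae transcripts the nascent levels moved less. Scaled to S. cerevisiae reads, 0 members passed (edgeR called 83 genes, 1.59%, lower and 122, 2.34%, higher; 1140 had an unadjusted p under 0.05), with medians of -0.49 over the members and 0.06 over all genes. GPX2 stood at 331, 302 and 446 CPM with 5 µM CMK, against 670 and 850 CPM with DMSO, and TRX2 at 693, 410 and 409 CPM with CMK, against 807 and 671 CPM with DMSO. At 2 µM, where there is 1 library a group, the log2 difference of CMK from DMSO per S. pombe reads was -1.23 for TRX2, -1.18 for GPX2 and 0.10 for SRX1, and -1.22 for the median gene. When the 2 µM libraries were fitted together with the rest, 0 members passed, with or without the replicate number as a term. Without DMSO replicate 3 the call held for TRX2, TRR1, DOT5 and GPX2, where 564 of 5219 genes were lower in place of 3625, and the call of TSA1 was also lost without DMSO replicate 2, CMK replicate 3 or CMK replicate 4.

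**Figure D3:**
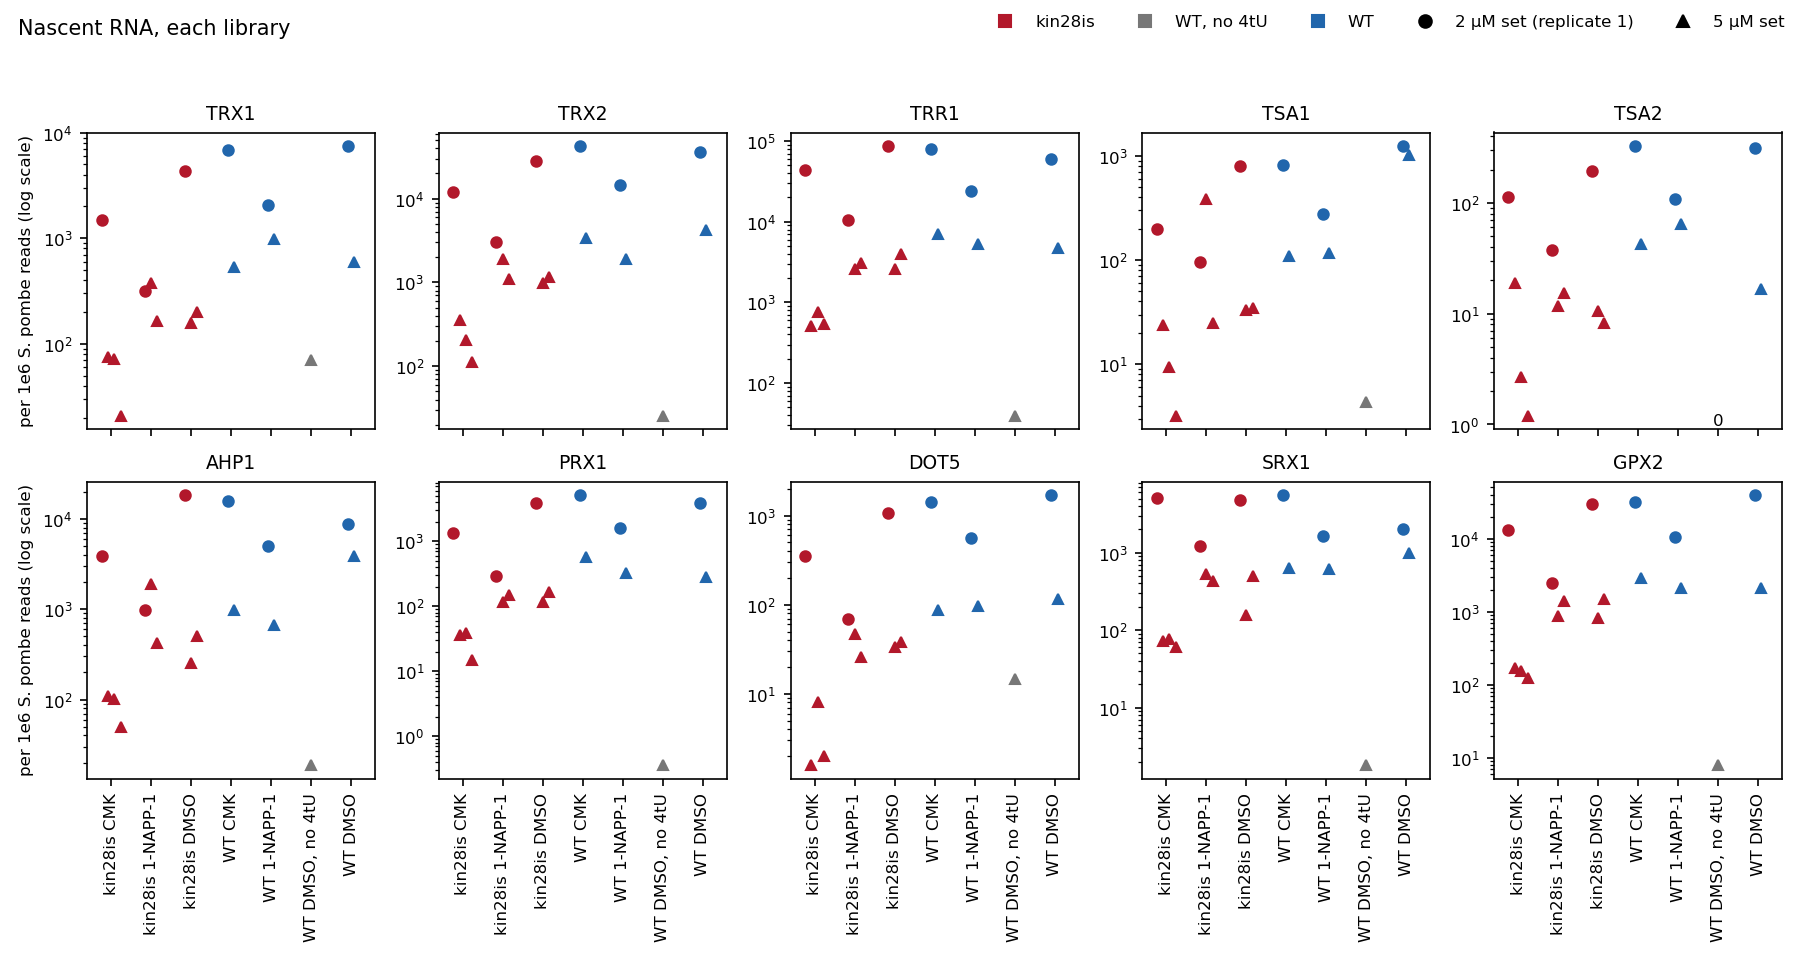
Level of each of the 10 genes in every nascent library of kin28is and WT cells, as reads per 1000000 S. pombe reads on a log axis, 1 point per library and no error bars. Red points are kin28is, blue points WT and the grey point WT without 4tU, with circles for the 2 µM and triangles for the 5 µM set; a value of 0 (TSA2 without 4tU) is marked as such. In the kin28is CMK and DMSO groups the circles lie above all triangles, and within the triangles GPX2 spans 123 to 170 with CMK, against 809 and 1466 with DMSO.

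Against 1-NAPP-1, the nascent fraction of kin28is cells again held less RNA of 9 members with CMK, where the background was 73.4% of genes lower (3835 of 5222) and 0.0191% (1 gene) higher. The medians were -2.77 over the members and -1.82 over all genes. TSA1 had 23.8, 9.35 and 3.21 reads per 1000000 S. pombe reads with CMK, against 387 and 24.8 with 1-NAPP-1 (log2 change -4.18 ± 0.70, adjusted p = 5.42e-07). AHP1 had 110, 101 and 49.3 with CMK, against 1888 and 423 with 1-NAPP-1 (-3.76 ± 0.56, adjusted p = 1.14e-08). Both values rest on 1-NAPP-1 replicate 2, which stood high for these genes. Without it TSA1 changed by -1.12 (adjusted p = 0.273) and AHP1 by -2.24 (adjusted p = 0.0102), and the call held for TRX2, TRR1, AHP1, PRX1, SRX1 and GPX2, where 1223 of 5223 genes were lower. GPX2 had 170, 154 and 123 with CMK, against 874 and 1376 with 1-NAPP-1 (-2.91 ± 0.53, adjusted p = 3.13e-06). Scaled to S. cerevisiae reads, AHP1 was the 1 member called (-1.73, adjusted p = 0.0465; 0.863% of genes lower and 0.825% higher), and 0 were called with the 2 µM libraries included. Without CMK replicate 2, TSA2 was called as well. At 2 µM, with 1 library a group, all 10 members were instead higher with CMK than with 1-NAPP-1 per S. pombe reads, by log2 differences between 1.07 (TSA1) and 2.38 (GPX2), beside 1.55 for the median gene.

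No member passed the test in nascent RNA with 1-NAPP-1 against DMSO in kin28is cells, at a background of 0 genes lower (0%) and 7 higher (0.134%) by edgeR, 40 genes at an unadjusted p under 0.05 and 0 genes called by DESeq2. The largest value was that of TSA1, 2.56 (adjusted p = 0.18), with 387 and 24.8 reads per 1000000 S. pombe reads with 1-NAPP-1, against 33.0 and 34.9 with DMSO. The 2 µM set, with 1 library a group, ran the other way: all 10 members were lower with 1-NAPP-1 than with DMSO per S. pombe reads, by log2 differences between -1.96 (SRX1) and -4.22 (AHP1), beside -2.80 for the median gene. WT cells showed 0 members called for CMK and 0 for 1-NAPP-1, with 4 genes (0.0766%) lower in each by edgeR and 0 by DESeq2. GPX2 had 2877 reads per 1000000 S. pombe reads in the WT library with CMK, against 2090 with DMSO, and TRX2 had 3414 with CMK, against 4219 with DMSO. TSA1 had 109 in the WT library with CMK and 117 in that with 1-NAPP-1, against 1028 with DMSO, and AHP1 had 992 with CMK and 676 with 1-NAPP-1, against 3862 with DMSO. For both genes that DMSO library stood high. The WT groups of the 5 µM set hold 1 library each, which the fit assumes to vary like the kin28is libraries. The interaction of CMK and strain gave 0 members, with 14 genes (0.268%) lower and 4 (0.0766%) higher, although 4 members had an unadjusted p under 0.05. GPX2 differed in log2 response by -3.38 ± 1.00 (kin28is minus WT, adjusted p = 0.113) and TRR1 by -2.98 (adjusted p = 0.121), while TSA1 had a difference of 1.62 (adjusted p = 0.269). By edgeR the nascent response was not shown to differ between the strains. The median difference by edgeR was -1.859 over the members and -1.861 over all genes. DESeq2 called TRR1, PRX1 and GPX2 lower in this difference, where 1207 of 5224 genes were lower.

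**Figure D4:**
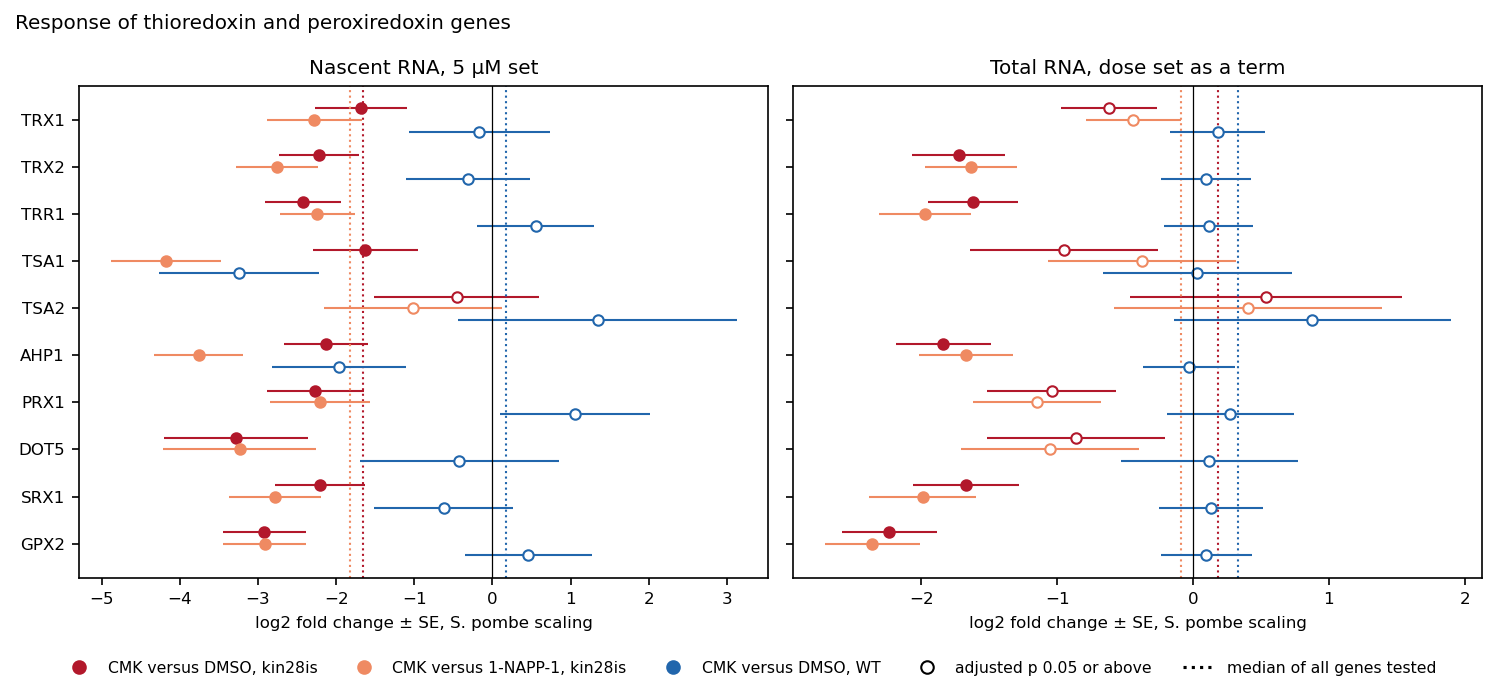
Log2 change of each of the 10 genes in nascent RNA (left) and total RNA (right) from the fits scaled to S. pombe reads, for CMK against DMSO and CMK against 1-NAPP-1 in kin28is cells and CMK against DMSO in WT cells. Bars are standard errors, filled points have an adjusted p under 0.05, open points do not, and dotted lines mark the median of all genes. In total RNA the kin28is points of GPX2 reach -2.24 and -2.36 while the all-gene medians lie at 0.18 and -0.09, and in nascent RNA the members spread around a median of -2.22 beside -1.66 for all genes.

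Under DMSO, TSA1 and AHP1 were lower in nascent RNA of the kin28is libraries than in the 1 WT library of the 5 µM set, which holds 830598 reads. This compares that library, not the strains. TSA1 stood at 27.4 and 20.2 CPM in kin28is cells, against 282 CPM in that WT library, and AHP1 at 209 and 296 CPM in kin28is cells, against 1060 CPM. The WT DMSO library of the 2 µM set had 27.9 CPM of TSA1 and 198 CPM of AHP1. The fit called both genes among 22 (0.421%) lower, where the all-gene median was -1.28. With the 2 µM libraries in the fit, 0 members were called, and leaving out either kin28is DMSO library likewise gave 0.

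The ratio of nascent to total level, per S. cerevisiae reads and set among all genes, was higher in CMK-treated kin28is cells for several genes that were low in total RNA. It is given as a description, since it rests on the same libraries and the total level is its denominator. Genes picked for a low total level with CMK tend to a higher ratio through that choice. For GPX2 the log2 ratio was 2.43 and 1.52 with CMK (replicates 1 and 2), above 99.7% and 97.8% of genes, against 0.33 and 0.36 with DMSO. TRX2 had log2 ratios of 1.73 and 1.44 with CMK, against 0.04 and 0.15 with DMSO, and TRR1 had 1.72 and 0.78 with CMK, against 0.19 and 0.17 with DMSO. SRX1 had 1.42 and 0.46 with CMK, against -1.09 and -1.71 with DMSO. In all 4 genes both CMK values exceeded both DMSO values. The same held for PRX1, not called in total RNA, with 0.812 and 0.105 with CMK, against -0.032 and -0.077 with DMSO. AHP1 had 0.58 and -0.19 with CMK, against -0.03 and -2.05 with DMSO, and TRX1 had -1.53 and -0.91 with CMK, against -1.30 and -2.11 with DMSO. The values of AHP1 and TRX1 overlapped between the groups, as did those of TSA1, TSA2 and DOT5.

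The level of several members also differed between cells grown without and with 4tU, both WT with DMSO. There was 1 library without 4tU per fraction, so no test is given, and a member is counted where the library without 4tU differed at least 2-fold from both libraries with it, on the scale of CPM + 0.5. In total RNA 5 of 10 members were lower without 4tU (78 of 5204 genes, 1.5%) and 1 was higher (1063 genes, 20.4%). GPX2 had 72.8 CPM without 4tU, against 674 and 561 CPM with it, 7.67 to 9.21-fold lower. TRX2 had 93.0 CPM without 4tU, against 689 and 819 CPM with it, 7.37 to 8.76-fold lower. SRX1 had 18.6 CPM without 4tU, against 122 and 257 CPM with it, 6.45 to 13.5-fold lower. TRR1 had 323 CPM without 4tU, against 1484 and 1614 CPM with it, and PRX1 had 46.3 CPM, against 112 and 115 CPM. In each of these genes the single library without 4tU lay below every WT library with it. TSA2 had 22.5 CPM without 4tU, against 5.74 and 8.54 CPM with it, and TSA1 had 66.2 CPM, against 21.0 and 44.1 CPM. TRX1 at 415 CPM without 4tU lay between its 298 and 466 CPM with it. AHP1 had 229 CPM without 4tU, against 349 and 713 CPM with it, and DOT5 had 55.4 CPM, against 44.8 and 47.0 CPM.

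Together the members took 0.134% of S. cerevisiae reads in total RNA without 4tU. Per S. pombe reads 4 members were lower (0.922% of genes) and 1 higher (3.82%). The least-read 200 genes averaged 28.0 RPKM in the total RNA library without 4tU, against 9.47 and 6.65 RPKM with it, and the part of this in the result was not tested. In nascent RNA per S. cerevisiae reads, 5 of the 9 members over the low-count minimum were lower without 4tU (9.18% of genes) and TRX1 and DOT5 were higher (15.8%). GPX2 was 10.3 to 15.6-fold lower there and PRX1 25.6 to 29.4-fold lower, the PRX1 value resting on 1 read without 4tU. Every library of the CMK comparisons carried the label.

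In the nascent fraction, the library without 4tU gives the level seen without label. Per 1000000 S. pombe reads it held 7.96 reads of GPX2, 4.7 to 6.5% of the levels in the 5 µM CMK libraries of kin28is cells. For SRX1 (1.81) this was 2.3 to 3.0% and for PRX1 (0.362, from 1 read) 0.9 to 2.4%. For these 3 genes the CMK levels lay well above the level of that library. The total RNA library without 4tU also held less of GPX2, SRX1 and PRX1, at 72.8, 18.6 and 46.3 CPM. Their kin28is CMK means in total RNA were 144, 120 and 60.8 CPM. Of TRX1 and DOT5 it held more, at 415 and 55.4 CPM, against 291 and 29.2 CPM. Carry-over of unlabelled RNA in labelled cells was not tested, and the nascent library without 4tU may not stand for it. TRX1 had 69.5 reads per 1000000 S. pombe reads without 4tU, that is 93.1%, 96.3% and 333% of its CMK levels, and DOT5 had 14.8, above each of its CMK levels. The CMK levels of TRX1 and DOT5 in all 3 libraries were thus close to or below that level. For TSA1 (4.34) the share was 18.2%, 46.5% and 135.5% in CMK replicates 2, 3 and 4, so its CMK level lay below the unlabelled one in replicate 4. For AHP1 it was 17.2 to 38.2%, for TRX2 7.2 to 22.7% and for TRR1 5.1 to 7.8%, and TSA2 was listed at 0 without 4tU.

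In kin28as cells 1-NAPP-1 and DMSO had 1 library each per fraction, so the values have no replicate check. In total RNA per S. cerevisiae reads, 1 member was at least 2-fold lower with 1-NAPP-1 (1.1% of genes) and 0 were higher (11.6%). It was GPX2, with 362 CPM with 1-NAPP-1, against 735 CPM with DMSO, 2.03-fold lower. Per S. pombe reads 2 members were lower in total RNA (3.22% of genes) and 0 higher (6.2%). They were GPX2, 2.44-fold lower, and TRX2, 2.02-fold lower. TRX2 had 639 CPM with 1-NAPP-1, against 1073 CPM with DMSO, and TRR1 had 1385 CPM, against 2071 CPM. TRX1 and AHP1 were likewise lower with 1-NAPP-1 by less than 2-fold, while TSA1 stood at 26.0 CPM, against 23.0 CPM with DMSO. In nascent RNA per S. cerevisiae reads 0 members were lower (2.56%) and 2 were higher (3.47%). They were SRX1, with 242 CPM with 1-NAPP-1, against 120 CPM with DMSO, and TSA2, with 15.4 CPM, against 6.13 CPM. Per S. pombe reads, 9 members were lower with 1-NAPP-1, where 97.1% of genes were.

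Other genes of redox control were read from lists of known function. In total RNA of kin28is cells with CMK against DMSO, 1 of 8 tested glutaredoxin genes was lower, beside the 1.78% of all genes. So were 2 of 5 tested genes of peroxide and superoxide removal. Of the regulators 0 of 3 tested were lower, of thioredoxin clients 0 of 5 and of further thioredoxin-system genes 0 of 2. No gene of these lists was called higher. The lower glutaredoxin was GRX2, a glutathione-dependent disulfide reductase, with 170.0 and 154 CPM with CMK, against 354 and 535 CPM with DMSO (log2 change -1.49 ± 0.36, adjusted p = 0.00379). SOD1, the copper-zinc superoxide dismutase, had 726 and 456 CPM with CMK, against 1253 and 1253 CPM with DMSO (-1.19 ± 0.33, adjusted p = 0.0235). CCS1, the chaperone that loads copper into SOD1, had 382 and 247 CPM with CMK, against 983 and 671 CPM with DMSO (-1.51 ± 0.34, adjusted p = 0.00128). All 3 had CMK libraries below both DMSO libraries in CPM. YAP1 itself had 199 and 233 CPM with CMK, against 385 and 359 CPM with DMSO, and did not pass (-0.89, adjusted p = 0.17).

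In nascent RNA, at the background of 69.4%, 7 of 8 tested glutaredoxin genes and 3 of 3 regulators were lower with CMK. Of the other lists, 3 of 4 genes of peroxide and superoxide removal, 2 of 5 clients and 0 of 2 further thioredoxin-system genes were lower. GRX2 changed by -3.27 (adjusted p = 1.88e-06), SOD1 by -2.13 (adjusted p = 0.000387), YAP1 by -2.47 (adjusted p = 9.81e-05) and SKN7 by -1.94 (adjusted p = 0.00278). Among clients, RNR1 and RNR2, subunits of ribonucleotide reductase, changed by -1.43 (adjusted p = 0.0197) and -1.40 (adjusted p = 0.0287). TRX3, the mitochondrial thioredoxin, had -0.70 and did not pass (adjusted p = 0.401).

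Across the 15 total RNA libraries, the genes whose log2(CPM + 1) profiles were most like that of TRX2 were GRE2 (r = 0.982), GSH1 (r = 0.975) and YNL134C (r = 0.975), out of 5166 genes compared. The profile of TRR1 was closest to those of RIB3 (r = 0.984), SFA1 (r = 0.967) and ADH6 (r = 0.957). TSA1 was closest to RPL7A (r = 0.923), TSC3 (r = 0.905) and RPL42A (r = 0.902). Among the members, TRX2 ran with GPX2 (r = 0.961), PRX1 (r = 0.941) and TRR1 (r = 0.899), while TRX1 (r = 0.095) and TSA1 (r = -0.271) did not follow it. In the 19 nascent libraries TRX2 was closest to OYE2 (r = 0.896), FCF1 (r = 0.89) and AIF1 (r = 0.885), TRR1 to RTG2 (r = 0.923), MRPS5 (r = 0.92) and SFA1 (r = 0.913), and TSA1 to EMW1 (r = 0.903), CDC50 (r = 0.84) and RPL7A (r = 0.826). SFA1 and RPL7A were the genes that recurred in both fractions for the same member. These values are descriptions: libraries share dose set, label and depth. Each fraction also includes its 1 library without 4tU. There TRX2 stood at 93.0 CPM in total RNA, against 255 CPM or more in every library with 4tU. The weight of that library in the r values was not tested.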

How the data were processed

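Nascent (4tU-labelled) and total RNA of S. cerevisiae with an S. pombe spike-in was sequenced in 34 libraries. The values are raw gene counts that the authors deposited, 1 column per library; sacCer3 is the build in the submitters' processing notes, which list the tools HTSeq 0.6.0, STAR 2.3.0 and CASAVA 1.8.2, with roles and strand setting not given in the sources used here. The 10 members and all gene lists were chosen with earlier results of these data known. Named genes beyond the members came from lists of redox function and from the 3 highest correlations with TRX2, TRR1 and TSA1.

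Counts were tested with edgeR 4.0.16 (quasi-likelihood, R 4.3.3, limma 3.58.1) on genes that passed filterByExpr (minimum count 10), and the procedure was checked on simulated counts. Library sizes were S. pombe totals times TMM factors from S. pombe genes. The nascent fit held the 10 kin28is and WT libraries at 5 µM. The total RNA fit held 12 libraries with the labelled dose set, shared by same-numbered libraries, as a replicate block. The block rests on that label and not on the correlations: 20 of 30 same-number pairs had deviations correlated above 0.1 (lowest -0.213, median 0.191). With 2 libraries a group the deviations mirror each other, so each value stands under both numbers and the pairs are not independent. DESeq2 1.42.0, S. cerevisiae scaling, other blocks and filters and leaving out libraries were alternatives. Groups with 1 library were compared by a 2-fold rule with no test. Promoter and coding sequences are RefSeq's.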

Additional observations from a re-analysis of the deposited data

Results flagged for a closer look

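TSA2 stood apart in 1 of the 4 nascent CMK libraries of kin28is cells. Replicate 2 had 37.1 CPM, against 8.15, 5.25 and 4.34 CPM in replicates 1, 3 and 4, and the gap to the next library was 0.884 of the group's range. It rests on 12 reads, and chance flags about 1 in 20 groups.

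In total RNA the CMK response differed between kin28is and WT cells by the interaction term for 4 genes. The difference in log2 change (kin28is minus WT) was -1.82 for TRX2, -1.73 for TRR1, -1.81 for AHP1 and -2.33 for GPX2. In CPM both kin28is CMK libraries of each of these genes lay below both DMSO libraries, while in WT cells the CMK and DMSO libraries overlapped. Per S. pombe reads, the scale of the test, the kin28is groups of TRX2, TRR1 and GPX2 overlapped as well.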

How the results depend on the processing

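Of 418 alternative values of called members, 283 kept direction and call, 128 kept direction but not the call, and 7 reversed. The reversed ones are CMK against 1-NAPP-1 in nascent RNA with all 16 libraries and no replicate block: TRX1 0.518, TRX2 0.63, TRR1 1.08, PRX1 0.946, DOT5 0.938, SRX1 0.852 and GPX2 1.088 (log2, adjusted p = 1 each). The cause was not tested. In nascent RNA, members called for CMK against DMSO (9) were 0 with S. cerevisiae scaling and 0 with all 16 libraries, without or with the replicate block; at 5 µM with the block 7 were called. For CMK against 1-NAPP-1 (9) they were 1 with S. cerevisiae scaling and 0 with all 16 libraries, without or with the block. For the interaction (0), DESeq2 called 3, where 1207 of 5224 genes were lower. For kin28is against WT under DMSO (2), 0 were called with S. cerevisiae scaling and 1 at 5 µM with the block. With all 16 libraries, without or with the block, 0 were called. DESeq2 called TRX2 and AHP1 lower there, where 496 of 5224 genes were lower, against 22 by edgeR. Leaving out 1 library gave 4 to 9 for CMK against DMSO, 6 to 10 for CMK against 1-NAPP-1, 0 to 1 for 1-NAPP-1 against DMSO, 0 to 2 for the interaction and 0 to 0 for the strains.

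In total RNA, CMK against DMSO (5) gave 8 with S. cerevisiae scaling, 0 with no replicate block and 7 with both changes. CMK against 1-NAPP-1 (5) gave 0 with no replicate block. The interaction (4) gave 0 with S. cerevisiae scaling, 0 with no replicate block, 0 with both and 1 without TMM factors. Leaving out 1 library gave 2 to 6, 2 to 5 and 0 to 5 for these 3. With no filter on low counts these member counts were the same, as were those of CMK against DMSO and against 1-NAPP-1 with kin28is libraries alone, where the interaction has no value. Genes called lower for CMK against DMSO were 93, but 260 by DESeq2, 36 without TMM factors, 1029 with S. cerevisiae scaling and 0 with no replicate block; in nascent RNA they were 3625, but 83 with S. cerevisiae scaling, 2255 with the block at 5 µM and 0 with all 16 libraries.

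The replicate numbers of nascent libraries do not pair them at 5 µM. The labels give numbers 2 to 4 no shared dose set of their own. Of 6 same-number pairs, 4 correlated above 0.1 (lowest 0.04), and the value for DMSO with 1-NAPP-1, 0.278, stands there under both numbers. Moving from S. pombe to S. cerevisiae scaling moved the median of all genes for CMK against DMSO from -1.66 to 0.06 in nascent and from 0.18 to 0.04 in total RNA. Depth limits DOT5, TSA1 and TSA2, which had as few as 1, 7 and 2 reads in nascent CMK libraries.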
